A study of Mus musculus with 6 samples.

Results

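The hearts of adult mice that had lost Id1 in Tie2Cre cells and Id3 everywhere were compared with the hearts of mice that had lost other combinations of the same alleles. The comparison used 3 of the 6 samples of the series, 1 Id conditional knockout (Id cKO) and 2 Id controls, each on 1 Affymetrix Mouse Gene 1.0 ST array. The Id cKO genotype was Tie2Cre+Id1F/-Id3-/-, in which the floxed Id1 allele is the only copy left for Cre to remove. Id control 1 was Id1F/+Id3-/- and thus had no functional Id3, no Cre in its label and a wild-type Id1 allele beside the floxed allele. Id control 2 was Tie2Cre+Id1-/-Id3+/-, with Cre, no functional Id1 in any cell and 1 wild-type Id3 allele. All 3 hearts therefore lacked Id alleles, and neither control is a wild type. The animals were 6 months old (postnatal day 180), and RNA came from heart tissue. The labels name no inbred background. Id cKO was set against each control array in turn, and a gene was counted only where both log2 differences agreed in direction. Of the 19938 genes that the array names, 11310 were compared, namely those at a log2 level of 6 or more in Id cKO or on average in the controls. The other arrays of the series hold 1 wild-type heart (WT), 1 Id cKO heart treated with recombinant IGFBP3 and its untreated Id cKO partner. They entered only where named.

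Id1 and Id3 are helix-loop-helix proteins without a DNA-binding region. They pair with E proteins and keep them from binding E-boxes, the short CANNTG sequences at which E proteins and their tissue-specific partners act. In adult tissues Id1 and Id3 are known from endothelial cells, where BMP signals switch them on through Smad proteins. Tie2Cre recombines floxed alleles in endothelial cells, including the endocardium, and in blood cells, and heart muscle cells are not its target. In RNA from whole heart, fewer cells of a type and less RNA per cell cannot be told apart.

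The targeted genes were measured at the following log2 levels. Id1 was at 8.10 in Id control 1, 6.41 in Id control 2 and 6.48 in Id cKO, against 8.14 in WT. The Id cKO heart thus lay 1.63 below the control with a wild-type allele and 0.07 above the control with none. Id3 was at 5.02 and 7.32 in the controls and at 4.69 in Id cKO, low in the hearts labelled without functional Id3. Whether the probes cover the deleted exons is not stated, and a probe outside them checks nothing. Each Id gene thus separated Id cKO from the control that keeps that gene, and from the other control by 0.33 or less. In what follows, 3 levels in a row stand for Id control 1, then Id control 2, then Id cKO. Id2 was at 6.86, 7.58 and 8.07 and Id4 at 5.65, 5.97 and 6.35. Both other Id genes were highest in Id cKO, by 0.49 and 0.38 over the nearer control. Id4 lay below the floor of 6 in both controls and entered only through Id cKO. In the list of 17 Id genes, E proteins and related factors, 10 lay above both controls and 3 below both, none by 2-fold.

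The arrays were alike in scale, with medians of 5.74, 5.73 and 5.77. All 3 hearts carried the female pattern, with Xist between 8.15 and 8.62 and the Y-linked Eif2s3y between 2.73 and 3.03. The WT heart carried the male pattern (Eif2s3y 7.98), so WT levels given beside these hearts also differ in sex pattern. Id cKO and Id control 2 share a date code in the labels and Id control 1 has another; what the codes date is not stated there. The controls also differed from each other. They were 2-fold apart at 129 genes (1.14%), of which 110 were higher in Id control 2 (0.973%) and 19 in Id control 1 (0.168%). Markers of atrial muscle were among these. Myl7, the atrial regulatory myosin light chain, was at 5.31, 12.27 and 5.38, and its essential partner Myl4 at 6.83, 12.97 and 6.81. Of the 3 arrays, Id control 2 alone was thus high in atrial markers, and its part in the differences from that array was not tested.

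By size, 127 of the 11310 genes (1.12%) were at least 2-fold from both controls in the same direction. Id cKO was higher at 79 genes (0.698%) and lower at 48 (0.424%). For comparison, 3790 genes (33.5%) were higher than both controls by any amount and 4734 (41.9%) lower, so small differences ran more often downward and 2-fold differences more often upward. The genes furthest up encode a lipid phosphodiesterase, an insulin-like growth factor binding protein, a kinase of NAD synthesis, a chemokine receptor and the natriuretic peptide BNP. The genes furthest down encode a carboxylesterase, a subunit of the acetylcholine-gated potassium channel, a neuropeptide precursor and a myosin light chain. With 1 Id cKO array, limma takes its spread from the control pair alone (1 residual degree of freedom). It called 2 genes at an adjusted p of 0.05 (0.0177%), Igfbp3 and Gdpd3, both higher, and 1523 genes (13.5%) had an unadjusted p under 0.05. The other 125 genes counted by size had adjusted p from 0.0879 to 0.417 in limma, so the differences given for them below are measured sizes without a passing test. Their unadjusted p was under 0.05 for all but 2 of the 48 lower genes.

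**Figure D1:**
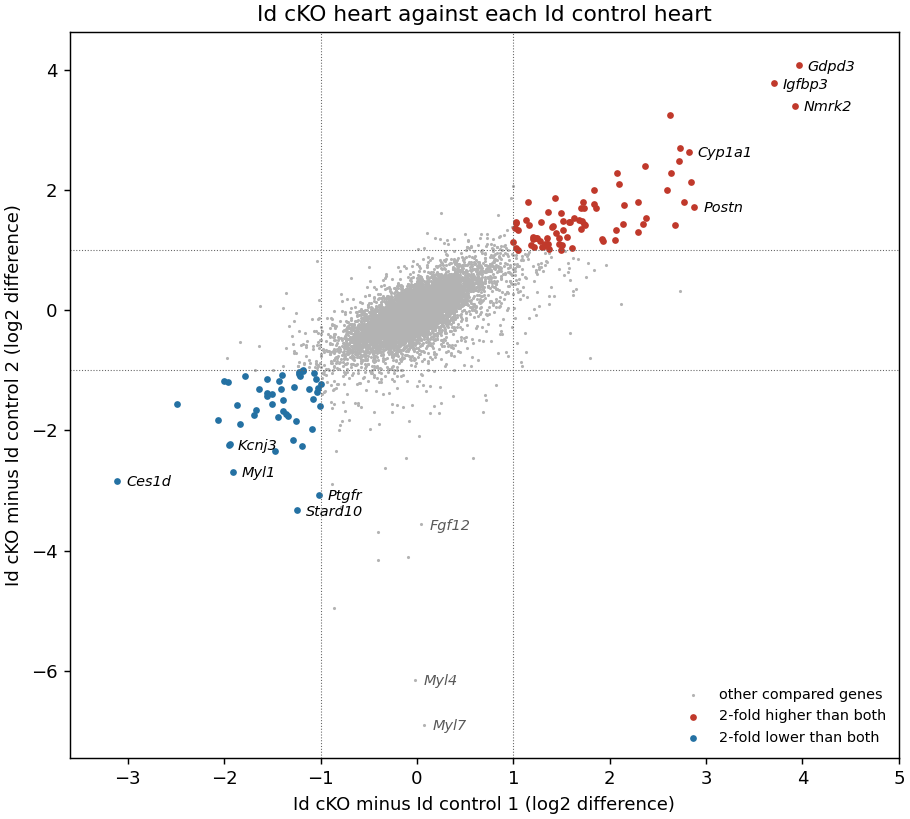
Each point is 1 of the 11310 compared genes, with the log2 difference of Id cKO from Id control 1 on the x axis and from Id control 2 on the y axis; dotted lines mark 2-fold. The 79 higher genes (red) lie at the upper right, with Gdpd3, Igfbp3 and Nmrk2 apart from the rest, and the 48 lower genes (blue) at the lower left, while Myl7 and Myl4 differ from Id control 2 alone.

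Igfbp3, a secreted carrier of insulin-like growth factors, was at 7.89 in Id control 1, 7.81 in Id control 2 and 11.60 in Id cKO. The controls lay close to each other and to WT (7.75), and Id cKO stood alone. It rose by 3.74 ± 0.14 on the log2 scale (limma SE, 1 array against 2, adjusted p = 0.0380), at least 13.0-fold from either control. Gdpd3, which releases lysophosphatidic acid from lysophospholipids, was at 4.94 and 4.82 in the controls and 8.90 in Id cKO. Its level was below the floor of 6 in both controls and in WT (5.06), so it entered the comparison only through Id cKO, and whether the control signal exceeds background is not known from these values. The measured difference was 4.02 ± 0.15 (adjusted p = 0.0380 in limma), which may understate the change. Nmrk2, the muscle kinase that makes nicotinamide mononucleotide from nicotinamide riboside, was at 6.61, 7.13 and 10.54, or 10.6-fold over the nearer control. Its adjusted p was 0.110 in limma, where the spread of 0.52 between the controls enters. When every probe set was tested, named or not, limma called 0 (smallest adjusted p 0.0864, 2076 at an unadjusted p under 0.05).

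The start regions of genes at both ends of the range are shown because E proteins, the partners of Id1 and Id3, bind E-boxes. These are the 250 bases before the transcription start that RefSeq's promoter table for mouse (GRCm38.p6) lists for the gene, written 5′ to 3′ on the gene's own strand. The windows of Igfbp3, Nmrk2, Kcnj3 and Myl1 lie at least in part within the gene's full annotated extent, so other transcripts of these genes start further upstream. Which start the hearts used was not measured. Capitals mark each E-box (CANNTG), and positions are counted backward from the start. Gdpd3 lies on the plus strand (chr7:126766164-126766413) and has an E-box at -231. Igfbp3 lies on the minus strand (chr11:7213924-7214173) and has CAGGTG at -172. Nmrk2, also on the minus strand (chr10:81202038-81202287), has CAGGTG at -125 and CAAGTG at -97. Among the genes that were lower, Kcnj3 on the plus strand (chr2:55435720-55435969) has CAGCTG at -65, and Myl1 on the minus strand (chr1:66945057-66945306) has it at -224.
Gdpd3: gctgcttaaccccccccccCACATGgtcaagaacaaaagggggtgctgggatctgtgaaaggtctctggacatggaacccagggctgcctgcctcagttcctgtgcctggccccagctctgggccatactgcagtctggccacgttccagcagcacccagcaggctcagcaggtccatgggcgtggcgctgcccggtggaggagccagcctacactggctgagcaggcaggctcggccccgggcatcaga
Igfbp3: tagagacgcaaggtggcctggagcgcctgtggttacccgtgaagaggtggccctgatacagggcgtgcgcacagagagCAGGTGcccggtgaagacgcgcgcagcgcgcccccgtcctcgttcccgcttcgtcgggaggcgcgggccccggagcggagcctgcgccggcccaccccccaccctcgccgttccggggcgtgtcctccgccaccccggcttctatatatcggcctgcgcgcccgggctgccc
Nmrk2: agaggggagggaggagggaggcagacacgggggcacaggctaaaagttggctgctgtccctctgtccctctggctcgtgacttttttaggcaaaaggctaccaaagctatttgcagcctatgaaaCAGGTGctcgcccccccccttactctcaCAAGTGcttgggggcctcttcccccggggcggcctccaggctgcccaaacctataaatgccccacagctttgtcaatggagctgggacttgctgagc
Kcnj3: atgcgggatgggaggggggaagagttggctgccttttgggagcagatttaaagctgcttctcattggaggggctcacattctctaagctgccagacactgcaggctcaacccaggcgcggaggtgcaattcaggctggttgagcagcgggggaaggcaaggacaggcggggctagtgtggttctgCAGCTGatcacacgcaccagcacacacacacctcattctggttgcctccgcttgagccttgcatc
Myl1: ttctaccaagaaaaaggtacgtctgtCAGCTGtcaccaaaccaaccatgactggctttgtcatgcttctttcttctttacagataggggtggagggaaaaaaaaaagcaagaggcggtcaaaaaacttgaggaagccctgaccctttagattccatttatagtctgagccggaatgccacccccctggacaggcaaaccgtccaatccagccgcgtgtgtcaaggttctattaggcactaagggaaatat

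Most promoters hold an E-box by these letters, whether or not the gene differed. The table covers 56 of the 79 higher genes with 65 promoters, 31 of the 48 lower genes with 36, and 9063 of all compared genes with 11604, each a window of 300 bases read on both strands. CANNTG stood in 44 (67.7%) of the promoters of higher genes, 30 (83.3%) of those of lower genes and 64.0% of all compared. The E-box form CAGGTG, on either strand, stood in 20 (30.8%), 9 (25.0%) and 18.0%. The E-box form CAGCTG stood in 18 (27.7%), 11 (30.6%) and 15.9%. GCGTG, the core read by the aryl hydrocarbon receptor and, in part, by hypoxia-inducible factors, stood in 29 (44.6%), 8 (22.2%) and 49.9%. ACGTG, the other hypoxia core, stood in 14 (21.5%), 9 (25.0%) and 25.4%. The letters were searched as a description without a test. Median GC content was 61.0% in higher genes, 53.8% in lower genes and 61.0% in all compared. The lower genes thus differed in median base composition from the other groups.

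Next furthest up by the smaller of both differences was AA467197, at 4.88, 4.91 and 7.62. It has an accession-like name and was left out of the named genes for that reason. Cyp1a1, the cytochrome P450 that the aryl hydrocarbon receptor switches on, followed at 4.68 and 4.86 in the controls and 7.50 in Id cKO (WT 5.95). Trp53i11 was at 8.10, 7.49 and 10.74. Cd109, a surface protein that binds TGF-beta, was at 5.15, 5.37 and 7.86. Cxcr4, the receptor of the chemokine Cxcl12, was at 7.60 and 7.57 in the controls and 9.97 in Id cKO, 5.18-fold over the nearer control. Cox4i2, the alternative form of subunit 4 of cytochrome oxidase, was at 7.22, 7.94 and 10.07, while the usual form Cox4i1 was at 12.13, 12.05 and 12.05. Thus the difference lay in the alternative subunit. Next came Fxyd6 (8.64, 8.63 and 10.75), a regulator of the sodium pump, and Sprr1a (5.59, 5.38 and 7.66), a small proline-rich protein. Kcne3 (4.17, 4.01 and 6.02), a potassium channel subunit, barely reached the floor in Id cKO. Ttc9 was at 5.41, 6.37 and 8.18. Of all 79 higher genes, 13 were at least 4-fold over both controls, and 23 lay below 6 in both controls and thus entered only through Id cKO. Their median smaller difference was 1.36.

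Only 1 of the 48 lower genes was 4-fold below both controls. Ces1d, a carboxylesterase that hydrolyses triglycerides, was at 10.27, 10.01 and 7.17, or 7.15-fold below the nearer control. Kcnj3, the pore subunit of the acetylcholine-gated potassium channel, was at 8.99, 9.28 and 7.03. Penk, the precursor of enkephalins, was at 6.40 and 6.70 in the controls and 4.47 in Id cKO. Myl1, a myosin light chain of fast skeletal muscle, was at 6.71, 7.50 and 4.80. Mylk4, a myosin light chain kinase, was at 10.30, 10.35 and 8.61, with controls 0.05 apart. Other lower genes were Inmt (7.22, 7.27 and 5.38), a methyltransferase of indole amines, and Maob (9.31, 9.31 and 7.65), which oxidises amines at the mitochondrial outer membrane. Slc36a2 (7.71, 7.77 and 6.21) carries amino acids, and Emilin2 (8.68, 8.55 and 7.13) is an elastic fibre protein. Cabcoco1 was at 9.07, 8.83 and 7.01. In Mrgprh (8.00, 7.08 and 5.52) and the fatty acid elongase Elovl7 (5.88, 6.75 and 4.41) the controls stood further apart, at 0.92 and 0.87. Among the 48, 12 lay below 6 in Id cKO, and the median smaller difference was -1.26.

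**Figure D2:**
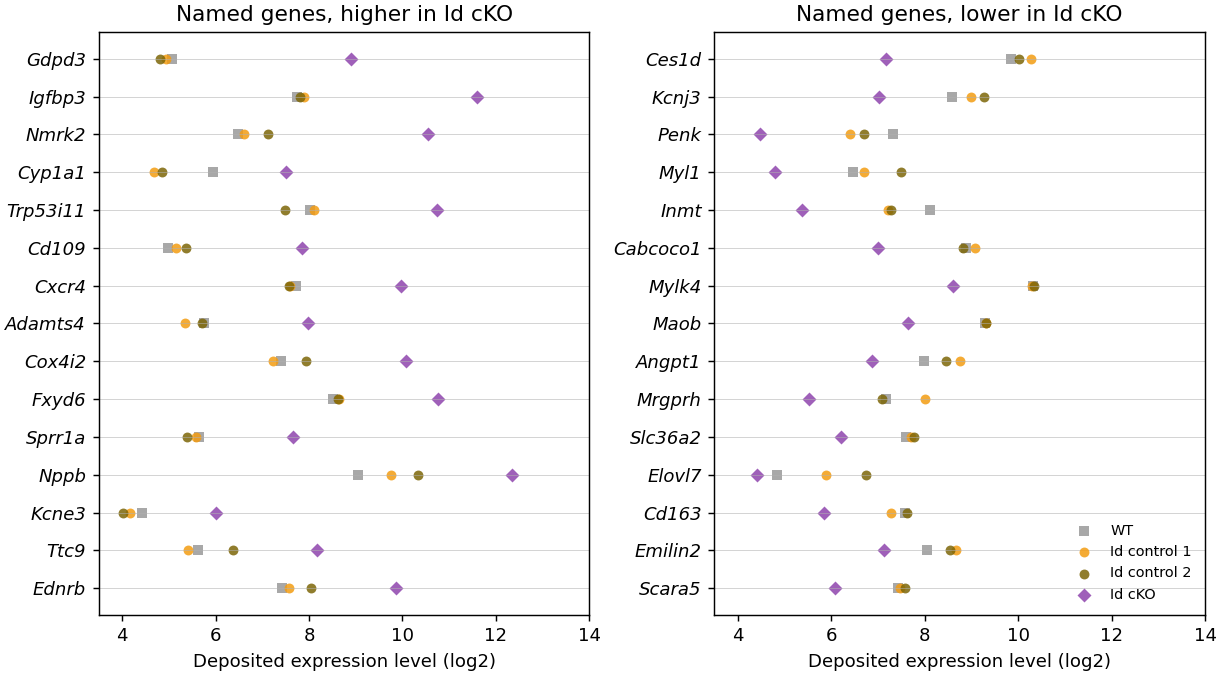
Deposited log2 level (x axis) of the 15 named genes furthest up (left) and the 15 furthest down (right), 1 point per array for WT, Id control 1, Id control 2 and Id cKO. In every gene shown Id cKO is over 2-fold from both controls, and the controls lie close together for Igfbp3, Gdpd3, Cxcr4, Mylk4 and Maob.

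The controls were within 0.25 of each other for 61 of the 127 counted genes. They were 2-fold apart themselves at 5, namely Postn, Nts, Stard10, Ccl6 and Ptgfr. Ptgfr, the prostaglandin F receptor, was at 6.28, 8.33 and 5.26, and Stard10 at 8.77, 10.86 and 7.53, so most of their distance was from Id control 2. Just inside the 2-fold limit lay Septin11 (smaller difference 1.00) and Rab27b (1.01). Just outside it lay the oxygen sensor Egln3 (0.99), the Notch ligand Dll4 (0.98), the tight junction protein Cldn5 (0.97) and the basement membrane chain Col4a2 (0.96).

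Gene lists by role give the wider setting, each with its count and median beside the same over all compared genes, where 3790 of 11310 were above both controls, 4734 below both and the median difference from the control mean was -0.03. Of 19 natriuretic peptide and stress genes of heart muscle, 14 lay above both controls and 2 below both (median 0.39), and 4 were 2-fold higher. Nppb, which encodes BNP, was at 9.76, 10.34 and 12.35. Rcan1, the calcineurin feedback regulator, was at 8.96, 9.67 and 11.10, the stretch-responsive Ankrd1 at 12.11, 12.23 and 13.39, and Ccn2, the connective tissue growth factor, at 9.53, 10.29 and 11.45. Nppa and Acta1 behaved otherwise. The ANP gene Nppa was at 11.30, 13.71 and 14.03 and the skeletal actin gene Acta1 at 11.03, 13.05 and 13.15, so both were over 2 above Id control 1 and within 0.32 of Id control 2. Of 18 sarcomere and Z-disc genes, 4 lay above both controls and 6 below both, none by 2-fold, around a median of -0.00 (-0.05 against control 1 and 0.02 against control 2). Their mean level was 12.59, 12.51 and 12.52.

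Calcium cycling and potassium channel genes lay below both controls more often than above both. In the calcium cycling list 13 of 16 lay below both controls and 2 above both (median -0.16, with -0.27 against control 1 and -0.16 against control 2), among them the T-type channel Cacna1h (6.60, 6.99 and 5.99), the calcium-binding protein Hrc (11.42, 11.13 and 10.59) and the pump Atp2a2 (13.88, 13.91 and 13.58). Potassium channels had 14 of 24 below both and 4 above both (median -0.34). After Kcnj3 came its partner subunit Kcnj5 (8.64, 8.70 and 7.72), then Kcnh2 (9.07, 8.90 and 8.17) and Kcnd2 (8.88, 8.80 and 8.10). Kcnj3 was the only member of this list 2-fold below both controls. Sodium channels and connexins had 5 of 9 below both and 2 above both (median -0.23), none by 2-fold. Kcnj3 and Kcnj5 are also counted as atrial genes, and the part of the atrial markers' levels in their differences was not tested. For the 11 atrial markers the median was 0.04 against Id control 1 and -2.24 against Id control 2. Their mean level was 8.00, 10.44 and 7.94.

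Metabolic genes were mostly lower, by small differences. Of 32 genes of fatty acid uptake and oxidation, 28 lay below both controls and 1 above both, none by 2-fold (median -0.40; the medians against controls 1 and 2 were -0.40 and -0.36). The thiolase Acaa2 was at 12.31, 12.27 and 11.45, the thioesterases Acot2 at 10.55, 10.52 and 9.69 and Acot1 at 7.46, 7.61 and 6.69, and the carnitine carrier Slc25a20 at 10.83, 10.76 and 10.12. Of 39 respiratory chain and ATP synthase genes, 30 lay below both and 4 above both (median -0.18), for example Ndufa9 (11.71, 11.67 and 11.19) and Ndufs1 (11.79, 11.80 and 11.34), subunits of complex I. Glycolysis and glucose uptake were mixed, with 10 of 23 above both and 8 below both (median 0.03, with 0.08 against control 1 and -0.01 against control 2). There Pfkp, the platelet form of phosphofructokinase (8.77, 9.66 and 10.83), and the lactate exporter Slc16a3 (6.62, 6.87 and 7.97) were 2-fold higher. The insulin-responsive glucose transporter Slc2a4 (11.06, 10.89 and 10.28) was lower and the widespread transporter Slc2a1 (8.57, 8.22 and 9.07) higher than both controls. Chosen after their values were seen, the mitochondrial and detoxifying enzymes Aldh2 (10.42, 10.25 and 9.23), Gstk1 (10.06, 9.95 and 8.56) and Adhfe1 (10.05, 9.88 and 8.83) were among the 48 lower genes. Fbp2, the muscle form of fructose bisphosphatase (8.61, 8.43 and 7.04), and Pdp2, which activates pyruvate dehydrogenase (7.07, 7.65 and 6.06), were among them too.

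**Figure D3:**
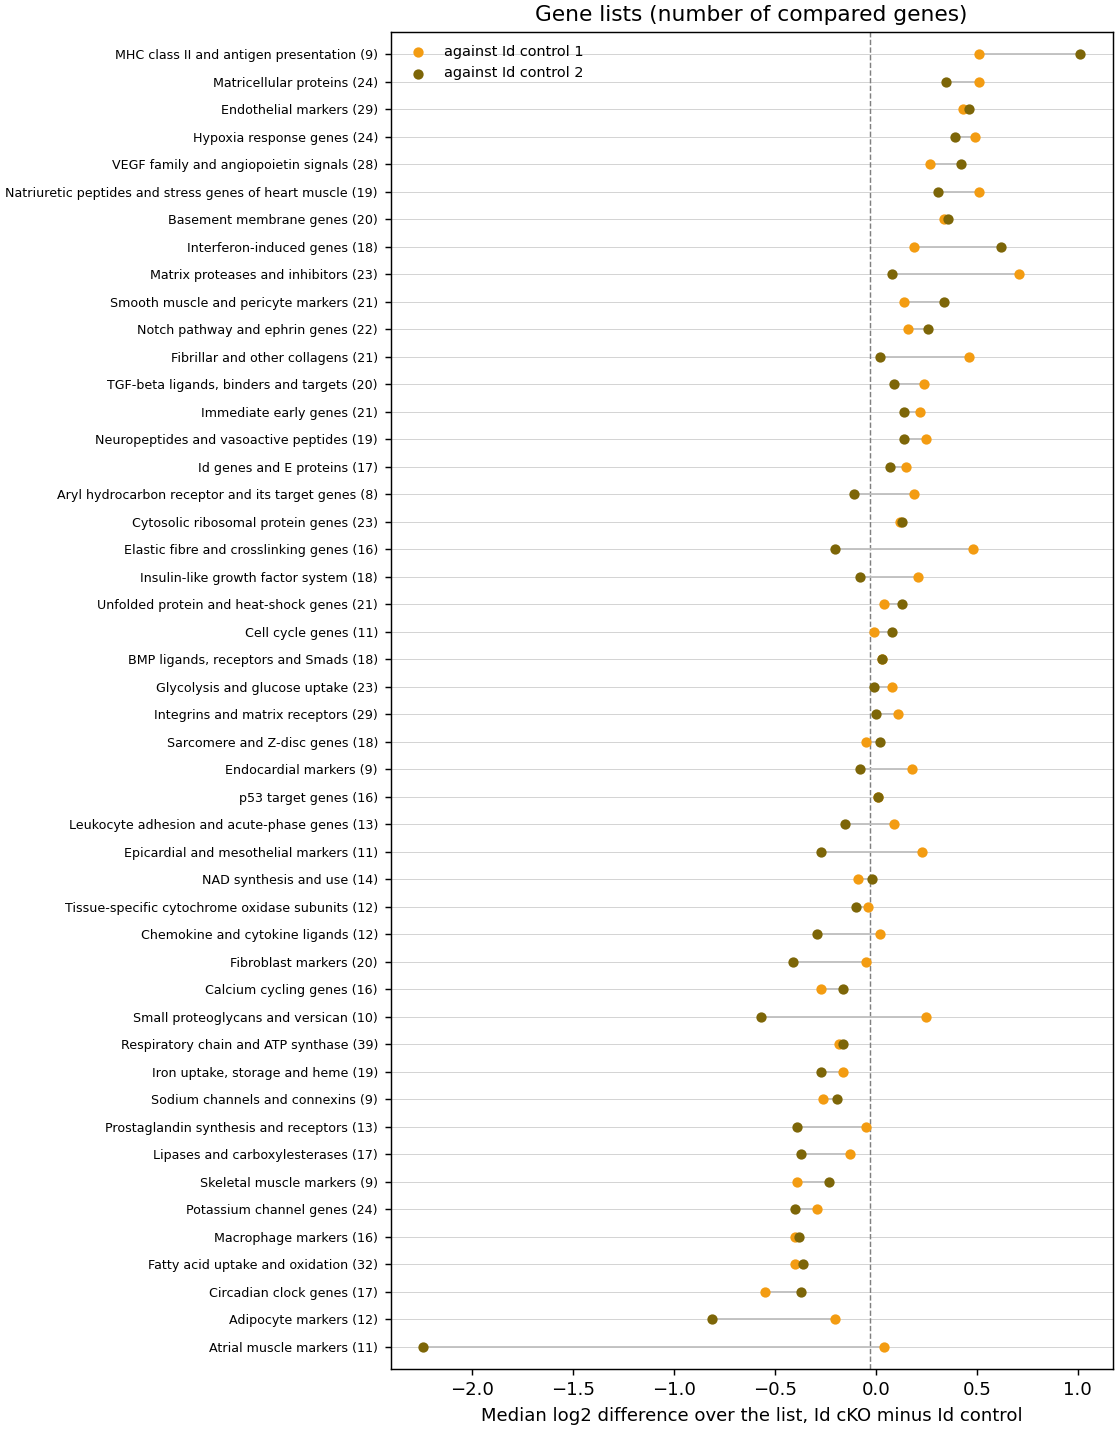
Median log2 difference of Id cKO from Id control 1 (orange) and from Id control 2 (brown) over the compared members of each gene list, whose number is in parentheses; the dashed line marks the median of all compared genes against the control mean, -0.03. Fatty acid and macrophage lists lie below it against both controls and endothelial markers above it, while the atrial medians are 0.04 and -2.24 and the adipocyte medians -0.20 and -0.81.

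Hypoxia response genes lay above both controls in 18 of 24 cases and below both in 3 (median 0.41). Adm, the vasodilator peptide adrenomedullin, was at 7.17, 6.75 and 8.20 and was the member 2-fold from both. Egln3 was at 10.20, 9.81 and 11.19, Vegfa at 10.03, 10.02 and 10.96, Car9 at 5.06, 5.30 and 6.15, and the collagen prolyl hydroxylase P4ha1 at 8.88, 9.07 and 9.72. Pdk1, another gene of this kind, was at 10.05, 9.91 and 10.16. Car9 lay below the floor of 6 in both controls and entered only through Id cKO. The list members Car12 (4.71, 4.50 and 4.41) and Hif3a (4.82, 4.89 and 4.73) were under the floor and not counted. Each was lower in Id cKO than in both controls.

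Vessel genes were more often above both controls than below both, and the ligands among them differed in both directions. Of 28 genes of VEGF, angiopoietin and Cxcr4 signalling, 17 lay above both controls and 6 below both (median 0.39), with 2 at 2-fold above and 1 below. Pgf, a ligand of the receptor Flt1, was at 6.63, 6.98 and 8.00. Angpt1, the ligand that activates Tek, was at 8.75, 8.45 and 6.88, 2.98-fold below the nearer control, while the antagonist Angpt2 was at 5.48, 5.60 and 6.25 and Tek itself at 8.96, 9.11 and 8.98. Angpt2 lay below the floor of 6 in both controls and entered only through Id cKO. By measured level the ligands of Tek thus differed in opposite directions, and the receptor was within 0.13 of each control. Cxcl12, the ligand of Cxcr4, was at 9.26, 8.65 and 8.08, lower than both controls. Among 22 Notch and ephrin genes 15 lay above both and 6 below both (median 0.23). The guidance receptor Unc5b was at 7.35, 7.35 and 9.05, the arterial Notch ligand Dll4 at 7.75, 6.87 and 8.73, Notch4 at 7.97, 7.57 and 8.90 and Efnb2 at 7.67, 7.69 and 8.54.

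Of 29 endothelial markers 20 lay above both controls and 4 below both (median 0.43), and their mean level was 8.72, 8.84 and 9.09. Cldn5 was at 7.37, 7.45 and 8.42, Sox18 at 8.34, 8.21 and 9.15, the nitric oxide synthase Nos3 at 7.78, 7.91 and 8.69 and Emcn at 9.17, 9.49 and 10.23. The defining markers differed less, with Pecam1 at 9.35, 9.94 and 9.95 and Cdh5 at 10.11, 9.80 and 10.53. Some list members were lower instead. Car4, a membrane carbonic anhydrase, was at 7.42, 7.78 and 6.06, and Timp4, a metalloproteinase inhibitor, at 8.43, 9.30 and 7.14, both 2-fold below both controls. The lymphatic list of 6 had no common direction, since Flt4 was at 7.32, 7.30 and 8.12 and Lyve1, which macrophages also carry, at 8.28, 9.16 and 7.18. Of 19 genes of neuropeptides and vasoactive peptides 9 lay above both controls and 6 below both (median 0.17), with 4 at 2-fold above and 1 below. Beside Adm, the endothelin receptor Ednrb (7.57, 8.05 and 9.86), neurotensin Nts (4.05, 5.31 and 6.73) and Ramp3 (6.89, 6.87 and 8.08) were 2-fold higher. Ramp3 turns the calcitonin-like receptor into an adrenomedullin receptor. Nts lay below the floor of 6 in both controls and entered only through Id cKO. The enkephalin precursor Penk, given above, was 2-fold lower than both controls.

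Over the 21 smooth muscle and pericyte markers 12 lay above both controls and 7 below both (median 0.25, with 0.14 against control 1 and 0.34 against control 2). Among the higher members were the adhesion molecule Mcam at 8.42, 8.47 and 9.95, Cspg4 at 7.19, 7.20 and 7.93, the channel Kcnj8 at 8.28, 8.12 and 8.84 and Pdgfrb at 9.02, 9.23 and 9.70, beside Cox4i2 above. Among the lower members were smooth muscle actin Acta2 at 11.10, 11.33 and 10.09 and smooth muscle myosin Myh11 at 8.03, 8.33 and 7.27. In WT, Acta2 was at 9.81 and Myh11 at 7.47, so for both genes Id cKO was nearer to WT than the controls were.

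Matrix genes were higher at the basement membrane and among matricellular proteins. Of 20 basement membrane genes 14 lay above both controls and 1 below both (median 0.36). The linker Nid2 was at 7.66 and 7.90 in the controls and 1.33 and 1.10 above them in Id cKO, and the collagen chains Col4a1 at 9.19, 9.62 and 10.70 and Col4a2 at 9.07, 9.47 and 10.43. Of 24 matricellular genes 15 lay above both and 6 below both (median 0.54, with 0.51 and 0.35 against each control), with 5 at 2-fold, namely periostin Postn (7.67, 8.83 and 10.55), Thbs4 (6.14, 6.99 and 8.52), Cilp (6.66, 7.65 and 8.95), Ccn2 and Sparcl1 (11.20, 10.82 and 12.33). Of 21 collagens 13 lay above both and 1 below both. Against control 1 their median was 0.46 and against control 2 it was 0.02, and Col12a1 (5.15, 5.72 and 6.76) was the member 2-fold from both. The main fibrillar chains did not stand apart from Id control 2, with Col1a1 at 9.30, 10.49 and 10.50 and Col3a1 at 9.04, 10.24 and 9.72. Fibroblast markers lay below both controls in 10 of 20 cases and above both in 5, with a median of -0.05 against Id control 1 and -0.41 against Id control 2. Their mean level was 8.63, 9.25 and 8.78, with Pdgfra at 8.40, 9.20 and 7.88 and Dcn at 11.71, 12.26 and 11.69. The part of the higher fibroblast level of Id control 2 in these differences was not tested. Of 23 matrix proteases and inhibitors 11 lay above both and 5 below both (median 0.25, with 0.71 against control 1 and 0.08 against control 2), and Timp4 was the member 2-fold lower. Those 2-fold higher were the versican-cleaving Adamts4 (5.34, 5.70 and 7.98), urokinase Plau (6.98, 7.01 and 8.71) and the membrane-bound Mmp14 (7.43, 8.17 and 9.35). Chosen after their values were seen, the kallikrein proteases Klk8 (5.93, 5.50 and 6.96), Klk10 (5.55, 5.55 and 6.94) and Klk14 (5.33, 5.06 and 6.69) were all among the 79 higher genes. Kallikreins did not form a gene list, so no share is given for them. These kallikreins, Adamts4 and Col12a1 lay below the floor of 6 in both controls. They entered only through Id cKO and could be counted only as higher.

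In the TGF-beta list 12 of 20 genes lay above both controls and 5 below both (median 0.18, with 0.24 against control 1 and 0.09 against control 2). The activin chain Inhbb was at 5.71, 5.85 and 7.56, the binding protein Ltbp2 at 6.15, 6.51 and 7.86, Tgfb2 at 6.13, 6.51 and 7.46 and Tgfb1 at 8.39, 8.39 and 9.14. Lower were the co-receptor Tgfbr3 (8.82, 8.80 and 7.94) and Ltbp1 (8.69, 8.56 and 7.93). Of 18 BMP ligands, receptors and Smads 7 lay above both and 3 below both (median 0.06, with 0.03 against each control). Smad1, which carries the BMP signal to the nucleus, was at 7.58, 7.61 and 8.83 and was the member 2-fold higher, while its targets Smad6 (7.45, 7.64 and 7.67) and Smad7 (8.11, 8.04 and 8.25) were within 0.22 of each control. In the insulin-like growth factor system 7 of 18 lay above both and 5 below both (median 0.09, with 0.21 against control 1 and -0.08 against control 2). Beside Igfbp3, Stc1 (5.56, 5.83 and 7.03), the stanniocalcin that inhibits the Igfbp-cleaving protease Pappa, was 2-fold higher. Inhbb and Stc1 lay below the floor of 6 in both controls and entered only through Id cKO. Igfbp5 (8.46, 9.53 and 10.05) and Igfbp7 (10.72, 11.15 and 11.64) were higher than both controls by less, and Igf1 was at 6.19, 6.71 and 6.54.

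Most macrophage markers were lower and most antigen presentation genes higher. Of 16 macrophage markers 12 lay below both controls and 2 above both (median -0.39, with -0.40 and -0.38 against each control). Cd163, the haemoglobin scavenger receptor, was at 7.28, 7.62 and 5.84, Folr2 at 7.39, 7.20 and 6.20, Mrc1 at 7.79, 7.93 and 7.20, Csf1r at 8.10, 8.16 and 7.70, while Adgre1, the F4/80 antigen, was at 7.01, 6.86 and 7.09. Adgre1 thus was not lower. Among list members under the floor and not counted, Ms4a7 (3.98, 3.81 and 4.76) was higher than both controls and Timd4 (5.74, 5.63 and 5.37) lower. Ccr2 and Cd14, also under the floor, lay between the controls. Among the 48 lower genes were also F13a1 (8.46, 8.73 and 7.43), Cbr2 (8.23, 8.23 and 6.96) and the chemokine Ccl6 (7.28, 8.35 and 6.10), all of which macrophages can carry, and the cytokine Il15 (7.99, 7.80 and 6.77). Of 9 genes of MHC class II and antigen presentation 8 lay above both controls and 0 below both (median 0.76), none by 2-fold. H2-Aa was at 8.33, 7.97 and 9.23, H2-Ab1 at 8.94, 8.56 and 9.67 and its chaperone Cd74 at 8.63, 8.28 and 9.35. Of 18 interferon-induced genes 12 lay above both and 0 below both (median 0.30, with 0.19 against control 1 and 0.62 against control 2). Lymphocyte markers reached the floor of 6 in 0 cases.

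**Figure D4:**
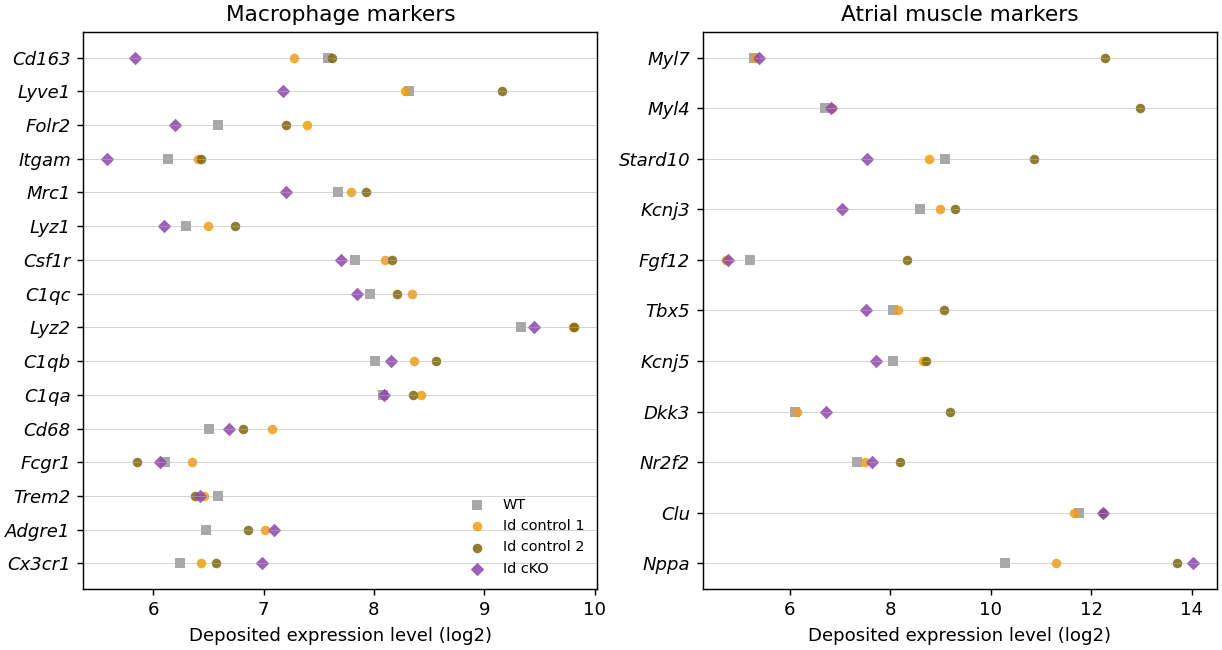
Deposited log2 level (x axis) of the compared macrophage markers (left) and atrial muscle markers (right), 1 point per array for WT, both Id controls and Id cKO. Cd163, Folr2 and Mrc1 are lowest in Id cKO while Adgre1 is not, and Myl7 and Myl4 are at 12.27 and 12.97 in Id control 2 and below 7 on the other arrays shown.

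Of 19 genes of iron and heme 14 lay below both controls and 2 above both (median -0.20), and Slc40a1, the iron exporter ferroportin (7.90, 7.58 and 6.50), was the member 2-fold lower. Outside that list, the ferritin receptor Scara5 was at 7.48, 7.57 and 6.08. The transferrin receptor Tfrc was at 8.93, 10.91 and 10.53, between the controls. Clock genes also differed, which bears on any gene with a daily rhythm. The activator Arntl was at 5.79, 6.75 and 7.33, and its output genes Dbp at 10.70, 9.39 and 8.86 and Hlf at 7.78, 7.32 and 6.39. Of 17 clock genes 11 lay below both controls and 5 above both (median -0.42). Time of day of collection is not stated in the labels, and its part in the differences was not tested. Adipocyte markers had a mean of 7.97, 8.80 and 7.84, with the median at -0.20 against Id control 1 and -0.81 against Id control 2.

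The same measure was read on arrays that the comparison did not use, the untreated Id cKO heart minus the WT heart, after all 6 arrays had been brought to the same quantiles. The labels call this heart an Id cKO without spelling out its alleles, and it was incubated without IGFBP3 as the partner of the treated heart. Both hearts carried the male pattern (Eif2s3y 7.98 in WT), so sex pattern was matched here as well. Of the 79 higher genes, 74 (93.7%) were higher than WT in this heart and 57 (72.2%) 2-fold higher, with a median of 1.56 and 0 genes 2-fold the other way. Over all compared genes 47.6% were higher and 6.63% 2-fold higher. Of the 48 lower genes, 41 (85.4%) were lower than WT and 29 (60.4%) 2-fold lower, with a median of -1.22 and 4 genes 2-fold the other way, against 52.4% and 5.80% of all genes. The WT array is wild type for both Id genes, and the incubation was applied on 1 side alone, so genotype and incubation cannot be told apart in these values.

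The furthest of the 79 were Postn (4.99), Cilp (4.89), Thbs4 (4.57), Gdpd3 (4.30) and Sprr1a (4.06), with Igfbp3 at 3.30 and Nmrk2 at 2.21. Of the 48, Ces1d (-3.93), Angpt1 (-2.86), Myl1 (-2.63), Cabcoco1 (-2.44) and Mylk4 (-2.35) were furthest down. Genes that were higher than the Id controls but not higher than WT here were Vaultrc5 (-0.55), Gap43 (-0.33), Gbp2b (-0.23), Hspa1l (-0.23) and Abra (-0.18). Macrophage genes did not follow, and neither did fibroblast markers. The median of the 16 macrophage markers was 0.78 and 14 were higher than WT, with Lyve1 at 0.51 and Cd163 at -0.11. Fibroblast markers had a median of 1.38 with 20 of 20 higher than WT, against -0.16 from the Id controls. Immediate early genes (21 of 21 higher, median 1.77) and leukocyte adhesion and acute-phase genes (13 of 13 higher, median 2.25) were shifted up as well. The smooth muscle gene Acta2 was at 0.61. Endothelial markers had a median of 0.72. The treated Id cKO heart in place of the untreated heart gave 75 (94.9%) and 36 (75.0%) genes in the same direction. The treated and untreated arrays share 1586 identical values, while no other 2 arrays of the series share more than 32, so the treated array is not counted as an independent reading. Over all compared genes 4.29% were 2-fold higher than WT in both of these hearts and 2.65% 2-fold lower.

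**Figure D5:**
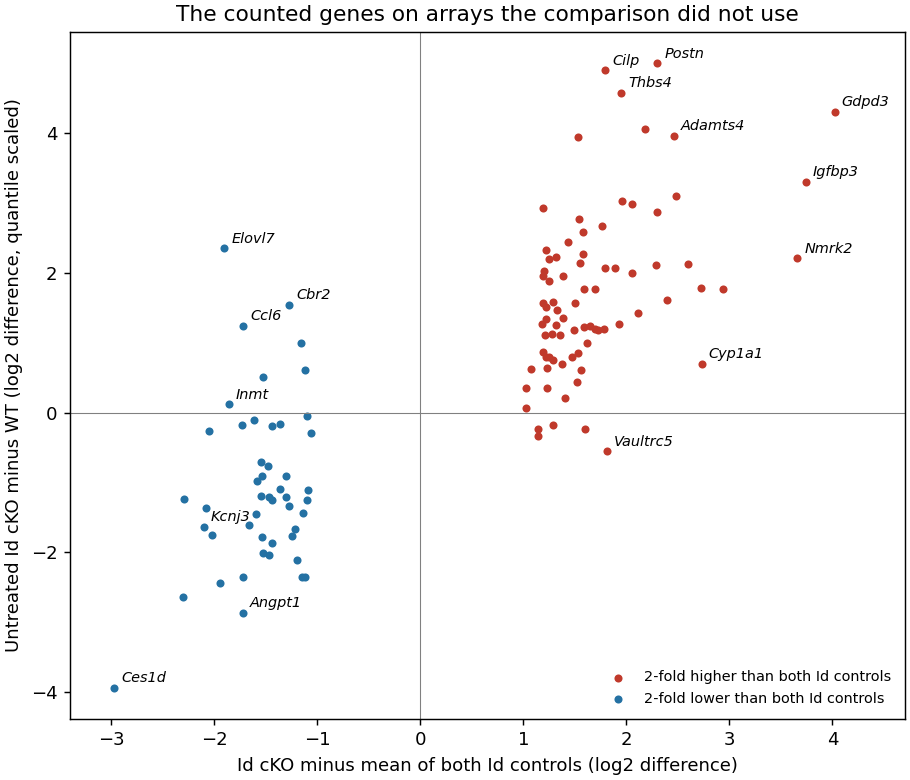
For the 127 genes 2-fold from both Id controls, the log2 difference of Id cKO from the mean of the controls (x axis) and of the untreated Id cKO from WT after quantile scaling (y axis), 1 point per gene. Of the 79 higher genes (red) 74 lie above 0 on the y axis and of the 48 lower genes (blue) 41 lie below it, with Elovl7, Cbr2, Ccl6 and F13a1 between 1.00 and 2.35 on the other side.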

How the data were processed

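Total RNA (300 ng per sample) from hearts was measured on Affymetrix Mouse Gene 1.0 ST arrays. The values deposited by the authors are log2 levels of 35557 probe sets. Affymetrix Expression Console and RMA were used, per the submitters' processing notes, without stated versions. The incubated pair was deposited on a lower scale (medians 4.45 and 4.51), so it was used only after quantile scaling over the 6 arrays. Precision is limited by the number of arrays.

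The platform annotation named the probe sets. Of them, 21789 carry 1 gene symbol, 1621 several and 12147 none, and 19856 genes matched RefSeq (GRCm38.p6) by Entrez identifier. For the 999 genes with several probe sets, the probe set of highest mean level was used. A gene was compared if its level in Id cKO or its control mean reached 6, and counted at 2-fold (the design text's limit) from both Id control arrays. limma 3.58.1 under R 4.3.3 was fitted to the 3 arrays, with p-values adjusted by Benjamini-Hochberg (limit 0.05). Prior degrees of freedom were 3.26, and the script was tested on simulated data. The lone Id cKO array was assumed to vary like the controls, which differ in genotype and date code. The labels do not say whether samples came from separate animals, and p-values therefore reflect just the spread of these samples, possibly technical.

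The genes named are Id1, Id3, Igfbp3, and the 15 furthest up and the 15 furthest down by the smaller of both differences. Predicted loci, clone or accession-like names and small RNAs were left out of these. List members that were 2-fold from both or furthest apart, defining markers and paralogs are named as well. Others are said to be chosen after their values were seen, as are genes given for the directions they did not share. The gene lists, the comparison and the tests were chosen with earlier results of these data known, so list counts are descriptions. Alternatives were other floors, scalings, fold limits, probe set rules, limma settings and leaving out each control. Promoter letters came from RefSeq's table.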

Additional observations from a re-analysis of the deposited data

Results flagged for a closer look

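Of 4455 probe sets without a single gene name that passed the floor, 22 (0.494%) were 2-fold higher in Id cKO than in both controls and 20 (0.449%) 2-fold lower. Among the named genes the shares were 0.698% and 0.424%, so these counts are near that background. Probe set 10343664 was at 4.78 and 4.53 in the controls and 6.46 in Id cKO.

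Of the genes 2-fold lower in Id cKO than in both Id controls, 4 were 2-fold higher than WT on both incubated Id cKO arrays after quantile scaling. Elovl7 was 2.35 above WT in the untreated heart, Cbr2 1.54, Ccl6 1.24 and F13a1 1.00. The difference between these comparisons was not tested.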

How the results depend on the processing

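With a floor of 8, 46 genes were 2-fold higher and 27 lower, and the controls were 2-fold apart at 51. Over all probe sets the controls were apart at 201, and limma called 0 (2076 at an unadjusted p under 0.05, smallest adjusted p 0.0864). A limit of 1.5-fold gave 297 higher and 268 lower, and 2-fold from the control mean 120 and 109. Leaving out either control gave between 128 and 173 genes higher and between 109 and 164 lower (128 and 164 without Id control 1, 173 and 109 without Id control 2). Id1 lay 0.07 above Id control without Id control 1 and -1.63 from it without Id control 2, and the atrial median was -2.24 without Id control 1 and 0.04 without Id control 2, while with a floor of 8 the lymphatic median was -0.06 and the adipocyte median 0.03. Of the other alternatives, limma with 6 arrays in 5 groups, or with trend and robust settings, called 2 genes each, and the smallest adjusted p over all settings was between 0.0146 and 0.0864. Higher genes made up 62.2% of those counted as deposited, 56.3% after median centring and 64.8% after cyclic loess, which shared 71 higher and 48 lower, and 75 higher and 41 lower genes with the main count. Of the named genes' values, 157 of 158 kept direction. Under median centring, cyclic loess and the mean of probe sets, the named genes also kept their side of the limma limit. With a control left out, only direction was read, and for all named genes but Id1 and Id3 it was fixed in advance. Those genes had been picked for being 2-fold from both controls in the same direction. The 157 therefore do not measure stability. Kcne3 fell under the floor after median centring and cyclic loess and was not counted there. Id3 is among the 157 although its difference shrank to -0.33 without Id control 2. Of the list medians 244 of 316 moved by less than the spread, 69 moved by more and 3 reversed. That spread came from the gap between a list's medians against each control. Lists on which the controls disagree therefore passed more easily, and the 244 do not measure stability. The atrial move from -1.10 to -2.24 without Id control 1 is among them. With a floor of 8, for example, the heart stress median was 0.86, the Notch and ephrin median 0.61, the basement membrane median 0.64 and the matricellular median 0.98. No paired analysis was possible because the labels give no replicate numbers. The controls' spread rests on 2 arrays of different genotype.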
